A study of Homo sapiens with 6 samples.

Results

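The 10 genes described here are enzymes and carriers of retinoid metabolism, read in all 6 RNA-seq libraries of a study of estrogen and the transcription factor ETV4 in Ishikawa cells, an estrogen-responsive endometrial adenocarcinoma line. They are 10 of the 26364 genes in the deposited count table. They were picked by name with earlier results of these data known, and the set was selected on the E2 contrast in so far as DHRS3 was picked for its strong increase with 17β-estradiol (E2). For that reason the E2 changes of the 10 genes are given as description, with no test. Libraries came from the parental Ishikawa line and from 2 clones with a knockout of ETV4 (clone 1 and clone 2). Cells of each line received E2 at 10 nM or the vehicle, 0.1% DMSO. A single library was made for each line in each condition, so the knockout groups had n = 2 clones and the parental groups had 1 library each. All cells had spent 5 days in medium depleted of hormones before treatment. The labels disagree on the length of treatment, which is 8 h in the protocol and 1 h in the sample characteristics. Each clone is a single derived line, and the parental line is a single line, so genotype and line cannot be told apart.

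Retinol enters cells in part through STRA6, the receptor for retinol-binding protein, and is oxidised to retinal by retinol dehydrogenases such as RDH10. The ALDH1A enzymes oxidise retinal irreversibly to retinoic acid, the ligand of the retinoic acid receptors. DHRS3 works against the first step by reducing retinal back to retinol. CRABP2 carries retinoic acid to its nuclear receptors, and the CYP26 enzymes clear it by oxidation. Retinoic acid signalling is known to take part in the differentiation of the endometrium.

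Total counts ran from 28037392 to 36829479 per library. ETV4, the targeted gene, had 586 counts (DMSO) and 1063 counts (E2) in the parental libraries and 71 to 122 counts in the clone libraries. All 8 epithelial markers examined reached 2 CPM (counts scaled to library size by TMM), with sums of 2578 to 3505 CPM. Sums were 49.1 to 87.4 CPM for 7 stromal markers, most of it COL1A1, with DCN and LUM at or below 0.0837 CPM. COL3A1 stood at 7.93 and 9.73 CPM in the parental line and at 1.34 to 3.35 CPM in the clones, and its part in the clone differences given further on was not tested. For 3 endothelial markers they were 1.61 to 3.96 CPM, all but traces of it VWF, and for 4 immune markers 2.32 to 4.78 CPM, most of it CD68, with CD3E at 0 counts.

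DHRS3 is the member with the large E2 change, so the sequences at its starts are shown. RefSeq (GRCh38.p14, not the hg19 build named for the counts) gives 3 starts, each printed 5′ to 3′ on the gene's strand from 250 bases before the start to 50 after it. Capitals mark matches to AGGTCA, the core hexamer bound by many nuclear receptors, or to GGAAGT, an ETS core, on either strand.
DHRS3 start 1, chr1:12618161-12618460, minus strand: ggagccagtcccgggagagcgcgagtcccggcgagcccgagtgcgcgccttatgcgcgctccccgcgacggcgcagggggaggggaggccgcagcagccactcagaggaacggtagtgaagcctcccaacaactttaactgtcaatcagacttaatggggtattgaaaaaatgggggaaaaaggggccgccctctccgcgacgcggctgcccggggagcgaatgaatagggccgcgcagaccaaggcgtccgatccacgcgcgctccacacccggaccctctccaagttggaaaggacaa
DHRS3 start 2, chr1:12616740-12617039, minus strand: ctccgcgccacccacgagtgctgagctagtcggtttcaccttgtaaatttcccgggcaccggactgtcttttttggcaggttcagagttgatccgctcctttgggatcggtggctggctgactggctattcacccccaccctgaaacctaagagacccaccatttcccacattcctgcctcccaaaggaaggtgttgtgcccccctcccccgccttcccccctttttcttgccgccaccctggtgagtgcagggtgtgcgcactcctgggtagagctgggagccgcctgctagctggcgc
DHRS3 start 3, chr1:12596564-12596863, minus strand: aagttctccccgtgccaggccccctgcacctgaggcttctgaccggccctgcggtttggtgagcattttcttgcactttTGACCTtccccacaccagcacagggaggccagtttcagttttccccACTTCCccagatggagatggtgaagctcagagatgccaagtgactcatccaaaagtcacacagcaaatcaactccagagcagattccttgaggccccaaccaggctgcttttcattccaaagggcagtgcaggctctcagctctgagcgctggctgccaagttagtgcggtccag
Both matches lie in the third sequence, reversed. The hexamer spans bases -171 to -166 relative to the start and the ETS core bases -125 to -120. AGGTCA occurs on either strand in 13.8% of the 35116 RefSeq promoters of this length and GGAAGT in 22.8%. The palindromic estrogen response element was searched as GGTCA, 3 bases and TGACC. The DR5 and DR2 retinoic acid response elements were searched as exact copies of AGGTCA. Read on both strands, these motifs matched 0 of the 17 promoters of the 9 members with a RefSeq promoter. These exact motifs are rare: 20, 2 and 1 of the 35116 promoters hold them (0.0570%, 0.00570% and 0.00285%), so nothing is read from the 0. The hexamer also occurred in 2 promoters of STRA6. These matches are descriptions of letters, and gene-level counts do not tell which start was used.

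In the vehicle the 10 genes covered a wide range of levels. Per kilobase of exon, RDH11 stood first, at a mean of 71.0 CPM per kb over the 3 lines (range 55.5 to 86.8). CRABP2 followed at 17.5 (12.8 to 23.6) and RDH10 at 5.68 (5.49 to 5.82), and the ranges of these 3 genes did not overlap with each other or with that of the next gene. DHRS3 came next at 1.20 CPM per kb (0.742 to 1.99). STRA6, CYP26B1, ALDH1A3, ALDH1A2, ALDH1A1 and CYP26A1 followed from 0.882 down to 0.0573 CPM per kb, and each of these overlapped its neighbour. In E2, DHRS3 ranked second in each of the 3 lines, at 38.1 CPM per kb (28.2 to 45.4), between RDH11 at 59.1 (53.5 to 62.7) and CRABP2 at 10.4 (10.1 to 10.7).

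**Figure D1:**
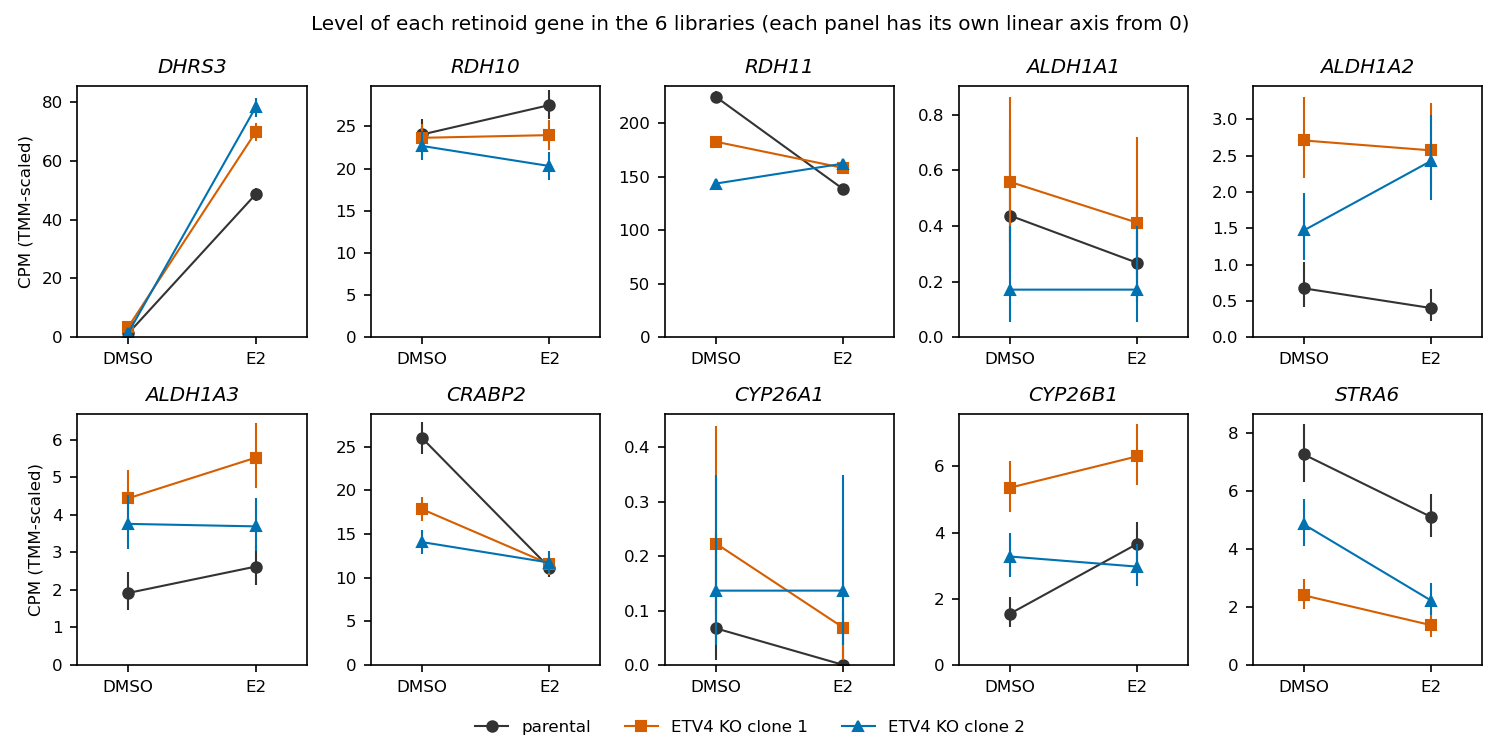
CPM of each of the 10 genes in DMSO and E2, with 1 point per library joined within a line and vertical lines for the 95% Poisson interval of the count. The DHRS3 panel runs from 1.28 to 78.2 CPM, and the CRABP2 points meet between 11.1 and 11.7 CPM in E2.

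DHRS3 encodes the short-chain reductase that returns retinal to retinol. It stood at 1.28 CPM (38 counts) in the parental line in DMSO, 3.43 CPM (123 counts) in clone 1 and 1.47 CPM (43 counts) in clone 2. In E2 it stood at 48.6 CPM in the parental line, 69.8 CPM in clone 1 and 78.2 CPM in clone 2. Every E2 library was above every DMSO library. The log2 difference between E2 and DMSO, with a prior count of 2, was 5.18 for the parental cells (95% counting interval 4.79 to 5.75). Clone 1 had 4.32 (4.08 to 4.62), and clone 2 had 5.68 (5.30 to 6.21). Clone 1, with the highest DMSO level, had the smallest difference. Among the 15611 genes tested, this change ranked 10 for parental cells, 9 for clone 1 and 5 for clone 2. Per kilobase, DHRS3 was 0.127 to 0.348 times the level of RDH10, the enzyme of the opposite reaction, in DMSO and 4.23 to 9.24 times its level in E2.

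The genes whose log2 CPM followed DHRS3 most closely over the 6 libraries, among the 12367 whose mean level reached 2 CPM, were CHRND, PPM1J, POLRMT, SLC22A5 and SNAPC3. Pearson's r ran from 0.996 for SNAPC3 to 0.999 for CHRND over these 6 libraries, which share 3 lines and 2 treatments. CHRND, a subunit of the muscle acetylcholine receptor, went from 0.168 to 0.391 CPM in DMSO to 3.34 to 4.32 CPM in E2. The E2 log2 change was 0.15 to 0.24 for SNAPC3 against 3.27 or more for CHRND, so a likeness of shape did not mean a likeness of size.

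RDH10, the retinol dehydrogenase named above, was the most even of the 10 genes across the libraries. It stood at 24.0, 23.6 and 22.7 CPM in the parental line, clone 1 and clone 2 in DMSO, and at 27.5, 24.0 and 20.3 CPM in E2. RDH11, which acts on several retinoid forms and lies in the endoplasmic reticulum, stood at 225, 183 and 144 CPM in DMSO and at 138, 158 and 162 CPM in E2. The parental line was highest in DMSO and lowest in E2. RDH11 differed by -0.70 on the log2 scale between E2 and DMSO in the parental line, by -0.21 in clone 1 and by 0.18 in clone 2. RefSeq places GPHN over RDH11 (854 to 1440 counts), RDH10-AS1 over RDH10 (5 to 23) and CCDC33 over STRA6 (4 to 21). The use of strand in counting is not given in the sources used here, so reads shared by such pairs cannot be told apart.

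CRABP2, the carrier of retinoic acid to the nucleus, was lower in E2 in all 3 lines. In DMSO it stood at 26.0 CPM in the parental line, and the clones held 17.8 CPM (clone 1) and 14.1 CPM (clone 2). In E2 the 3 lines held 11.1, 11.6 and 11.7 CPM, a narrow range that did not overlap with the DMSO values. In bulk RNA, fewer cells with the transcript and less of it per cell cannot be told apart. Parental cells had a log2 difference of -1.22, clone 1 of -0.62 and clone 2 of -0.26. STRA6, the retinol uptake receptor, was also lower in E2 in all 3 lines, from 7.26 to 5.10 CPM in the parental line, from 2.40 to 1.37 CPM in clone 1 and from 4.85 to 2.22 CPM in clone 2. Its log2 difference was -0.50, -0.78 and -1.10, and the counting interval lay below 0 in each line. The summed level of the 8 epithelial markers was also lower in E2 in each line. It went from 3452 to 2792 CPM in the parental line, from 3253 to 2578 CPM in clone 1 and from 3505 to 2591 CPM in clone 2. The markers did not move together. EPCAM, KRT8, KRT18, KRT19 and ESR1 were lower in all 3 lines, SOX17 was higher in all 3, and CDH1 and PAX8 differed in direction between lines. The sum of the 4 immune markers was higher in E2 in each line, from 2.32 to 4.78 CPM, 2.40 to 3.77 CPM and 2.97 to 3.96 CPM in the same order. Most of that sum was CD68, which was higher in each line. CD3E had 0 counts, and PTPRC and LYZ, at or below 0.206 CPM, differed in direction between lines. The part of these marker differences in the changes of CRABP2 and STRA6 was not tested.

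The retinal dehydrogenases ALDH1A2 and ALDH1A3 had their highest levels in the clones. ALDH1A2 stood at 0.672 and 0.401 CPM (DMSO, then E2) in the parental line, at 2.71 and 2.57 CPM in clone 1 and at 1.47 and 2.43 CPM in clone 2. ALDH1A3 stood at 1.92 and 2.62 CPM in the parental line, 4.44 and 5.52 CPM in clone 1 and 3.76 and 3.69 CPM in clone 2. For both genes the parental libraries were the lowest 2 of the 6. ALDH1A1 was scarce, with 5 to 20 counts per library (0.171 to 0.558 CPM), and its counting interval of the E2 difference included 0 in every line.

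The 2 clearing enzymes were at low levels. CYP26B1 went from 1.55 to 3.66 CPM in the parental line, while clone 1 held 5.36 and 6.31 CPM (DMSO, then E2) and clone 2 held 3.28 and 2.97 CPM. The E2 log2 difference was 1.21 in the parental line (counting interval 0.75 to 1.76), and its interval included 0 in clone 1 (0.23) and in clone 2 (-0.14). CYP26A1, which retinoic acid is known to induce, had 2 and 0 counts in the parental line (DMSO, then E2), 8 and 2 in clone 1 and 4 and 4 in clone 2, and did not pass the filter on low counts. Its 0 counts in the parental E2 library allow up to 0.0802 CPM (3 counts). It therefore entered no test, and the other 9 genes did.

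**Figure D2:**
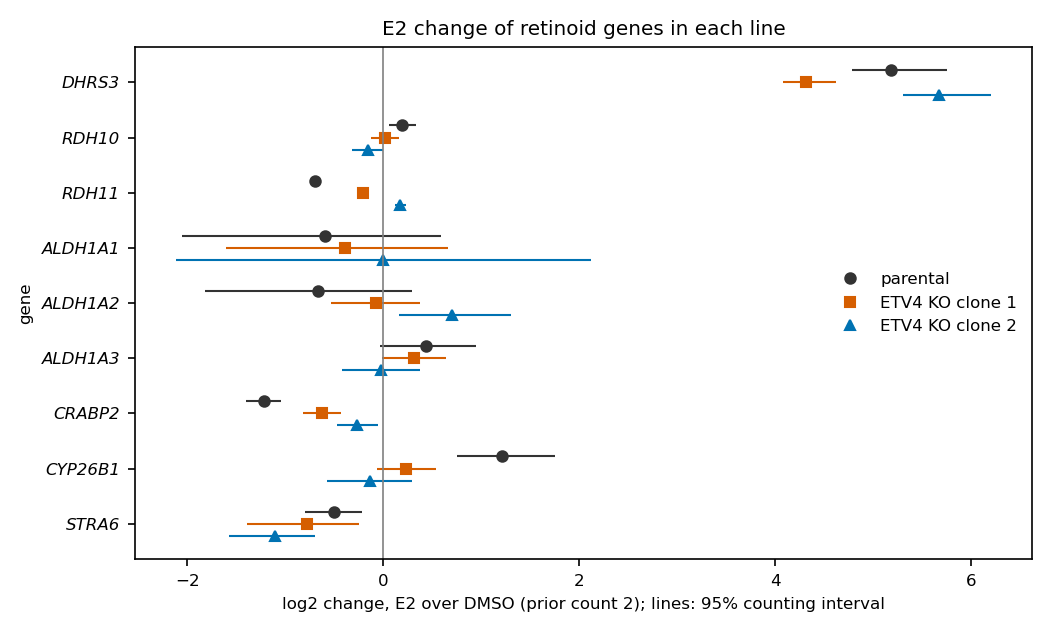
Log2 change from DMSO to E2 of the 9 tested genes in each line, with points for single libraries compared at a prior count of 2 and bars for the 95% counting interval. DHRS3 lies between 4.32 and 5.68, CRABP2 and STRA6 lie below 0 in each line, and the other genes lie on either side of 0 or have intervals that include it.

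Of the 9 tested genes, 3 were at least 2-fold changed in the parental line (DHRS3, CRABP2 and CYP26B1), where 16.4% of all 15611 genes were. In clone 1 it was DHRS3 alone, against 6.04% of all genes, and in clone 2 it was DHRS3 and STRA6, against 6.51%. The 3 E2 libraries did not overlap with the 3 DMSO libraries for 2 of the 9 (DHRS3 and CRABP2), against 24.2% of all genes. Nothing is read from these counts, because the E2 change helped to choose the set. The median log2 E2 change of the 9 genes was -0.50 for parental cells, -0.07 for clone 1 and -0.03 for clone 2, while over all genes tested no line had a median above 0.01 or below 0 after rounding to 2 decimals. The changes given for single lines have no replicate check.

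The effect of the knockout was tested over all 6 libraries with treatment in the model. The rule that chose the genes does not use this contrast, though earlier results of these data were known when they were chosen. In edgeR (quasi-likelihood test, p-values adjusted by Benjamini-Hochberg over 15611 genes), 0 of the 9 genes passed a threshold of 0.05, against 0.327% of all genes. At an unadjusted p under 0.05 there were 4 of the 9 (DHRS3, ALDH1A2, ALDH1A3 and STRA6) and 1787 of all genes. The median log2 difference of the 9 was -0.07, against 0.01 over all genes. Nothing in the labels says that libraries came from separate cultures within a line, so these p-values measure only the spread between these libraries.

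ALDH1A2 had the largest difference, 2.10 (SE 0.42) on the log2 scale between clones and parental line (edgeR adjusted p = 0.138). Clones averaged 2.09 ± 0.876 CPM in DMSO and 2.50 ± 0.103 CPM in E2 (SD, n = 2), against 0.672 and 0.401 CPM in the parental line. STRA6 differed by -1.26 (SE 0.34, edgeR adjusted p = 0.271). It averaged 3.62 ± 1.73 and 1.80 ± 0.601 CPM (SD, n = 2) in the clones against 7.26 and 5.10 CPM. ALDH1A3 differed by 0.95 (SE 0.26, edgeR adjusted p = 0.279). DHRS3 differed by 0.73 (SE 0.30, edgeR adjusted p = 0.431). In DMSO the DHRS3 difference was 1.38 in clone 1 and 0.19 in clone 2, and in E2 it was 0.52 and 0.69.

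The remaining 5 tested genes differed by -0.34 (CRABP2) to 0.86 (CYP26B1). For 4 of the 9 genes (RDH10, ALDH1A2, ALDH1A3 and STRA6) the 4 clone libraries did not overlap with the 2 parental libraries, against 16.4% of all genes. RDH10 was lower in the clones by no more than 0.44 on the log2 scale in any pair of libraries. DESeq2's Wald test called ALDH1A2 (2.11) and STRA6 (-1.26), at adjusted p = 0.00155 and 0.0422, and called 2.91% of all genes. Without clone 2, edgeR called DHRS3 (0.83), ALDH1A2 (2.32), ALDH1A3 (1.14), CYP26B1 (1.25) and STRA6 (-1.73), with 6.41% of all genes. Without clone 1 it called ALDH1A2 alone of the 9 (1.84), with 4.09% of all genes. Both of these fits had 1 residual degree of freedom and took their spread from the trend pooled over genes.

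**Figure D3:**
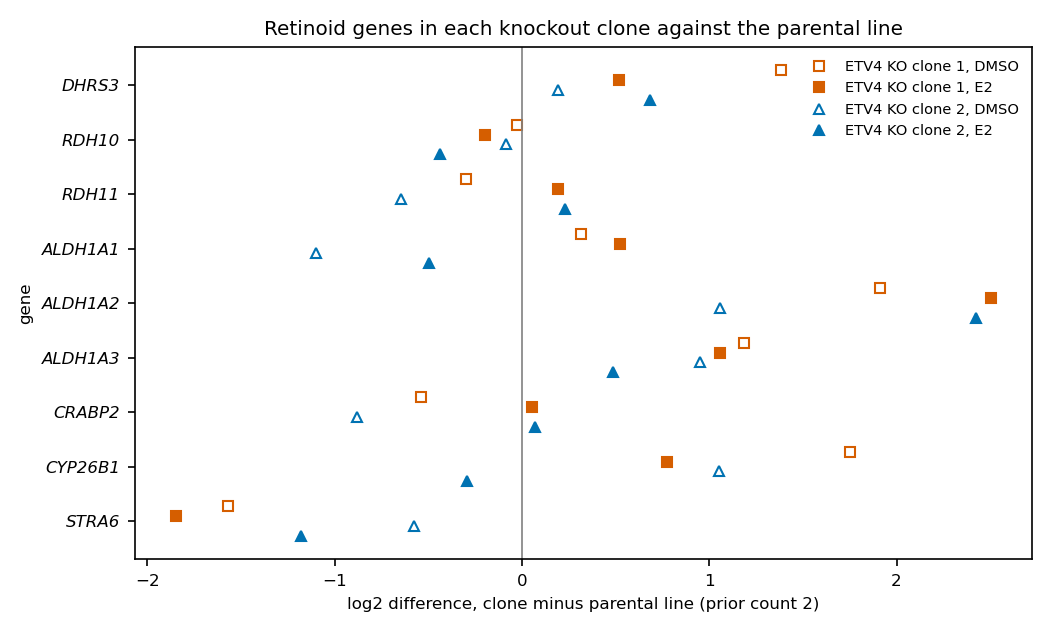
Log2 difference between each clone and the parental line in the same treatment, with open symbols for DMSO and filled symbols for E2, for the 9 tested genes at a prior count of 2. ALDH1A2 and ALDH1A3 lie above 0 and STRA6 below 0 in all 4 comparisons, while CRABP2 and RDH11 lie below 0 in DMSO and above it in E2.

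Whether the E2 change differed between clones and parental line was tested by the interaction. Of the 9 genes, 0 passed in edgeR and 0 had an unadjusted p under 0.05. Of all genes 0.0% passed, and 1190 had an unadjusted p under 0.05. DESeq2 gave an adjusted p for RDH11 alone of the 9 (0.225). There 1 of the 9 had an unadjusted p under 0.05, and 1202 of all genes did. DHRS3 had an interaction of -0.35 (SE 0.63). The E2 change of DHRS3 was smaller than the parental one by 0.86 in clone 1 and larger by 0.49 in clone 2, so the clones lay on either side of the parental line.

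With line as a replicate block, which pairs the DMSO and E2 libraries of a line and leaves 1 residual degree of freedom, 3 of the 9 genes passed in edgeR, against 15.8% of all genes. In this fit the single parental pair adds no spread of its own, and each gene's spread was replaced by the trend pooled over genes (infinite prior degrees of freedom), so the p-values do not cover variation between parental lines. CRABP2 had an interaction of 0.77 (SE 0.24, edgeR adjusted p = 0.0138), where 0.77 (SE 0.34, adjusted p 0.617) was obtained without the block. CYP26B1 had -1.17 (SE 0.38, adjusted p 0.0207 in edgeR with the block), against an adjusted p of 0.654 without it. RDH11 had 0.68 (SE 0.25, adjusted p 0.0434 in edgeR with the block), against 0.617 without it. For all 3 genes the parental line had the larger change in absolute terms, and the DMSO level set the parental line apart more than the E2 level did. CRABP2 spread by an SD of 6.09 CPM over the 3 lines in DMSO and 0.296 CPM in E2, RDH11 by 40.5 and 12.8 CPM, and CYP26B1 by 1.91 and 1.76 CPM. These SDs include the spread between the clones. For CYP26B1 the parental line was lowest in DMSO (1.55 CPM, clones 5.36 and 3.28). In E2 its level of 3.66 CPM lay between those of the clones (6.31 and 2.97).

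GC content moved with the E2 change of the parental line. Tested genes were put into 5 bins of equal size by GC content. In the bin that holds RDH11 (42.6%) the median parental E2 change was -0.15, and in the bin that holds CRABP2 (55.8%) and CYP26B1 (56.8%) it was 0.18. In the clones the same medians ran from -0.04 to 0.02. The parental E2 difference of CRABP2 had the opposite sign to the median of its bin, and those of the other 2 genes had the same sign. After each library's trend on GC content was removed, with the block, the interaction was 0.93 for CRABP2 (adjusted p 0.00231 in edgeR), -0.99 for CYP26B1 (adjusted p 0.0716) and 0.52 for RDH11 (adjusted p 0.117). Only CRABP2 of the 9 genes passed in that fit, against 12.6% of all genes, a share near 1 in 9. The fit was chosen after the data had been seen.

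The 2 knockout clones were compared with each other to show how far lines of 1 genotype differ. In the model of 6 libraries with treatment and line, 0 of 9 genes passed in edgeR, against 0.871% of all genes. An unadjusted p under 0.05 was found for 3 of the 9 in edgeR, and for 1892 of all 15611 genes. DESeq2 called 0 of the 9, against 2.36% of all genes. In DESeq2 2 of the 9 had an unadjusted p under 0.05, and 1530 of all genes did. ALDH1A1 had a log2 difference of -1.48 (SE 0.50, edgeR adjusted p = 0.324), at 5 counts in each library of clone 2 against 12 and 20 in clone 1. CYP26B1 differed by -0.88 (SE 0.34, edgeR adjusted p = 0.377) and STRA6 by 0.87 (SE 0.25, edgeR adjusted p = 0.245). DHRS3 differed by -0.37 (SE 0.31). Without the parental libraries, in a fit with 1 residual degree of freedom, CYP26B1 (-0.89, adjusted p 2.81e-04) and STRA6 (0.89, adjusted p 0.00268) passed in edgeR, which is 2 of 9 genes where 18.3% of all genes passed.

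A further 46 genes of the retinoid pathway were read beside the 10: uptake and storage proteins, other oxidoreductases, receptors, and genes that retinoic acid is known to induce. Of these, 30 could be tested and 6 were listed at 0 in every library. In edgeR 2 of the 30 rose with E2 and 0 fell, against 1.13% of all genes in either direction. At an unadjusted p under 0.05 there were 8 of the 30 and 3180 of all 15611 genes. With line as a replicate block, 2 rose and 1 fell, against 2.46% of all genes. DESeq2 called 3 higher (RARA in addition) and 2 lower, RBP2 among them, against 7.14% of all genes. The median log2 change of the 30 was -0.12, against -0.02 over all genes. TGM2, a transglutaminase that retinoic acid is known to induce, rose from 30.3 to 66.6 CPM in the parental line, from 53.6 to 89.9 CPM in clone 1 and from 45.8 to 105 CPM in clone 2, a log2 change of 1.03 (SE 0.13, adjusted p 0.0211 in edgeR). NRIP1, a nuclear receptor corepressor, rose from 43.6 to 89.9 CPM in the parental line, from 61.1 to 120 CPM in clone 1 and from 50.5 to 129 CPM in clone 2, a log2 change of 1.12 (SE 0.12, adjusted p 0.0143 in edgeR). NRIP1 is also known as an estrogen target. Without the parental line neither gene passed in edgeR, at 0.97 for TGM2 (adjusted p 0.11) and 1.15 for NRIP1 (adjusted p 0.06). In that fit, which had no term for the clone, 47 of 14881 genes passed as higher and 2 as lower.

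**Figure D4:**
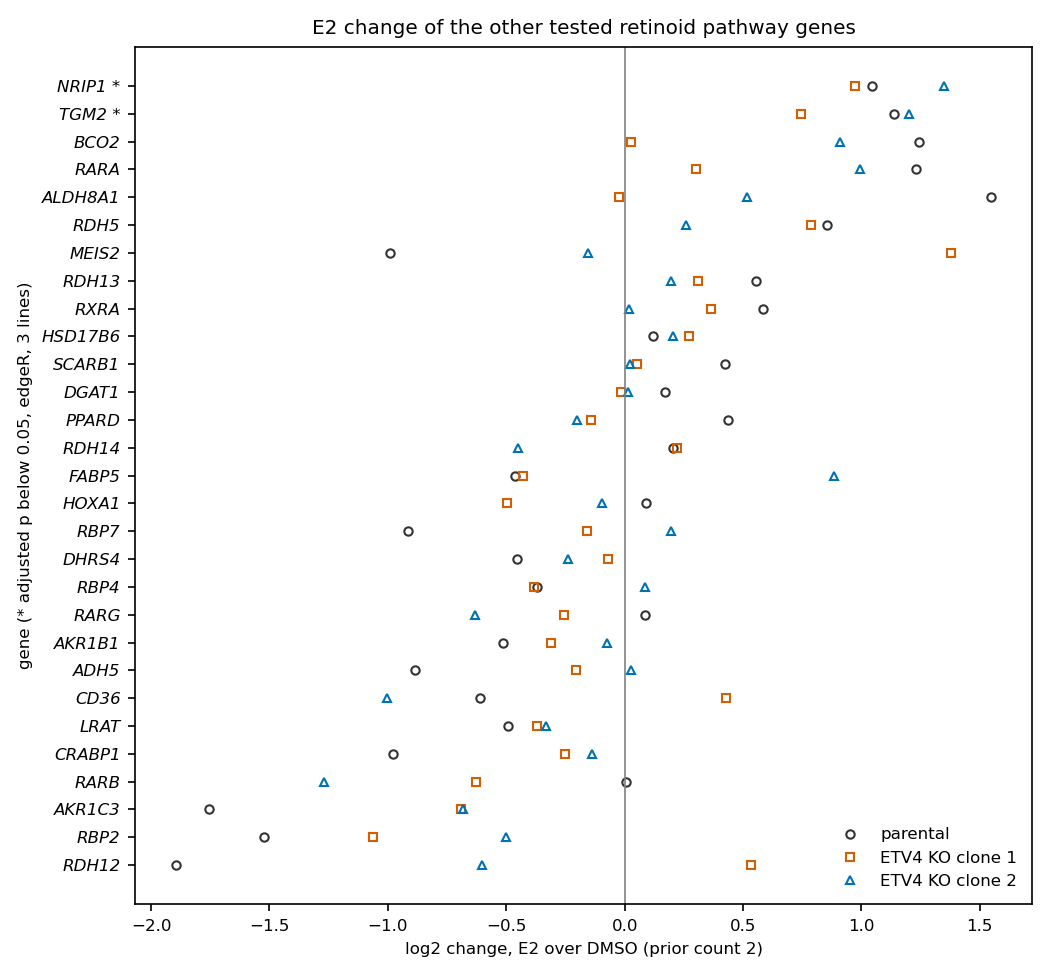
Log2 change from DMSO to E2 of 29 of the 30 tested genes of the wider retinoid pathway in each line, at a prior count of 2, sorted by the 3-line estimate, with an asterisk at an adjusted p below 0.05. NRIP1 and TGM2 are marked, at 1.12 and 1.03.

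Among the receptors, RARA stood at 16.8, 40.8 and 24.9 CPM in the parental line, clone 1 and clone 2 in DMSO and at 39.4, 50.2 and 49.6 CPM in E2. Its log2 E2 change was 0.81 (SE 0.22, edgeR adjusted p = 0.148). It passed in DESeq2 (0.81) and in edgeR without clone 1 (1.09, where 4.83% of all genes passed) or without clone 2 (0.76, where 21.6% passed). The edgeR fits without 1 clone had 1 residual degree of freedom and took their spread from the trend pooled over genes. RARA did not pass without the parental line (0.60), where 47 of 14881 genes passed as higher and 2 as lower. RARG, RARB and RXRA ranged over 38.2 to 72.9, 1.02 to 4.33 and 36.9 to 72.5 CPM and did not pass. RXRB was listed at 0 in every library, and RXRG had at most 1 count.

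In the knockout test edgeR called 0 of the 30 genes, against 0.327% of all genes. There were 8 of the 30 at an unadjusted p under 0.05, and 1787 of all 15611 genes. DESeq2 called 2.91% of all genes in this test. Of the 30, DESeq2 called TGM2 higher in the clones (0.62, adjusted p = 0.0138) and RBP2, an intestinal-type retinol-binding protein, lower (-0.96, adjusted p = 0.0455). The interaction called 0 of the 30 in edgeR and 0 in DESeq2, each with 1 at an unadjusted p under 0.05. DESeq2 gave an adjusted p for ADH5 alone of the 30 (0.156), so its 0 says nothing about the others. Of all genes, 1190 in edgeR and 1202 in DESeq2 had such a p. Pairing by line (replicate block) brought the interaction calls to 6 of the 30, against 15.8% of all genes. The estimate was above 0 for RBP7 (0.95), AKR1C3 (1.09), ADH5 (0.80), FABP5 (0.67) and RBP2 (0.73), and below 0 for RARA (-0.59). These 6 were named after their values were seen. With the block and the correction for GC content, 4 of the 30 passed with an estimate above 0 and 0 with one below, against 12.6% of all genes. ADH5 (0.60) and AKR1C3 (0.90) did not pass in that fit. FABP5 is another carrier of retinoic acid, and RBP2 and RBP7 are retinol carriers. Between the clones edgeR called 0 of the 30, against 0.871% of all genes. There were 4 of the 30 at an unadjusted p under 0.05, and 1892 of all genes. DESeq2 called RBP7, higher in clone 2 by 1.19, and 2.36% of all genes.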

How the data were processed

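The deposited table holds raw counts per gene and library. HISAT2, SAMtools, Subread, DESeq2 and the build hg19 are named, per the submitters' processing notes, with no versions or roles. The annotation and the use of strand are not given in the sources used here. Libraries were poly(A)-selected with a stranded kit, per the labels' protocols. Column names write DMOS and ER and were read as DMSO and E2. The deposited normalized table was not used.

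Counts were tested in R 4.3.3 with edgeR 4.0.16 (quasi-likelihood test, filterByExpr on 4 groups, TMM scaling, Benjamini-Hochberg adjustment over 15611 genes). Each SE was obtained by dividing the log2 estimate by √F. Alternatives used DESeq2 1.42.0 and limma 3.58.1, other filters and scalings, prior counts of 0.5 and 5, the replicate block, and lines left out. The code was tested on simulated data. Intervals of single libraries (95%, exact Poisson or binomial) cover counting error only. Exon lengths and GC content came from GENCODE v29 (GRCh38) by symbol and covered 93.6% of tested genes. They were used without coordinates.

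The clone numbers pair the libraries, since each number is 1 cell line. As a check, clone 2 minus clone 1 was taken in each treatment, and Pearson's r between the treatments was 0.626 across 15611 genes. Members and lists were chosen with earlier results of these data known. Genes named are the 10 members, other retinoid genes past the threshold, 6 retinoid receptors, the 5 genes most like DHRS3, and ETV4. PGR and GREB1 were also checked in E2 and were higher in each line. 1 gene of the wider pathway list is counted in the list totals and not reported here by name.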

Additional observations from a re-analysis of the deposited data

Results flagged for a closer look

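In the edgeR interaction with the replicate block, 3 genes had a different E2 change in clones and parental line: CRABP2 at 0.77, CYP26B1 at -1.17 and RDH11 at 0.68 on the log2 scale, where 15.8% of all genes passed. The parental arm is 1 line, and the spread came from the trend pooled over genes. Without the block the estimates were 0.77, -1.14 and 0.67 and none of these 3 passed. With the correction for GC content and the block they were 0.93, -0.99 and 0.52, and CRABP2 alone of the 3 passed. The parts of GC content and of the single parental DMSO library in these differences were not tested.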

How the results depend on the processing

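The number of genes past the threshold moved with the test. For the knockout effect it was 51, against 454 in DESeq2 and 631 to 996 without 1 clone. For the E2 effect it was 176, against 1115 in DESeq2, 384 with the replicate block, 620 with the block and the GC correction, and 49 to 3353 without 1 line. For the interaction it was 0, against 29 in DESeq2, 2470 with the block and 1969 with the block and the GC correction. Between the clones it was 136, against 236 with no filter, 63 with at least 10 counts in every library, 369 in DESeq2 and 2723 without the parental line. The cause was not tested. The knockout difference of ALDH1A1, which did not pass, went from -0.07 to between -1.02 and 0.47 without 1 clone. The interaction of DHRS3 went from -0.35 to between -0.86 and 0.49 without 1 clone, values with no test since no residual degrees of freedom remained. In limma-voom 0 of the 9 genes passed in the knockout test, with or without the replicate block (line as a random effect). Pairing thus had no call to remove, and it added none. Of the 9 genes, 3 changed in the same direction in all lines (DHRS3, CRABP2 and STRA6), with 3 under each other prior count and scaling. The share of all genes with the same direction in all lines was not taken, so nothing is read from this count. ALDH1A1 and CYP26A1 are limited by depth.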
